A study of Canis lupus familiaris and Eptesicus fuscus and Equus caballus with 6 samples.

Results

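The sequences described here are small RNAs of adult testis that contain the mature sequence of 1 of 10 conserved mammalian miRNAs and are at least 24 nt long. The miRNAs were miR-10b-5p, miR-30a-5p, miR-21-5p, miR-191-5p, miR-34c-5p, miR-146b-5p, miR-10a-5p, miR-26a-5p, let-7a-5p and miR-449a-5p. A listed sequence was taken as a member where it held the whole mature miRNA exactly, on either strand. This gave 64 of 2937574 distinct sequences in dog, 51 of 635917 in bat and 72 of 3971863 in horse. Over the 3 species 110 different sequences were found. Dog (Canis lupus familiaris), big brown bat (Eptesicus fuscus) and horse (Equus caballus) each gave 1 small RNA library from snap frozen adult testes, with no treatment named in the labels. Strain, age in years and the number of animals behind a library were not stated in the labels. With 1 library a species, no difference between species has a replicate check and none was tested. Intervals in parentheses are exact 95% intervals of the counts and cover counting error only, since reads without molecular identifiers are not independent molecules.

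miRNAs are cut from a hairpin by the nucleases Drosha and Dicer, are loaded into Argonaute proteins and repress mRNAs that pair with the seed, bases 2 to 8 of the miRNA. Where Drosha or Dicer cuts at a neighbouring base, or an enzyme adds bases to the 3-prime end, the same gene gives forms of other lengths, called isomiRs, and a shift of the 5-prime end also shifts the seed. Testis additionally holds piRNAs, which are longer than miRNAs, are bound by PIWI proteins and usually begin with U. In mouse, miR-34c and miR-449a are abundant in meiotic and later male germ cells and act redundantly in sperm formation.

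The files limit what can be seen of these miRNAs. Every listed sequence was 24 to 32 nt long, whereas the mature forms searched for were 22 or 23 nt. Only forms carrying at least 1 base beyond the searched sequence could therefore be listed. miR-146b-5p was searched in a 22-nt form that was not checked against a miRNA table. Whether its 24-nt form is itself a usual mature form was not tested, and its added bases are counted from the 22 nt. Levels below are reads per 1000000 listed reads of 24 to 32 nt (RPM) and say nothing of forms shorter than 24 nt. The libraries held 41328689 listed reads for dog, 5828928 for bat and 35830283 for horse, and a floor of 3 reads was 0.0726 RPM in dog, 0.515 RPM in bat and 0.0837 RPM in horse.

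The 24-nt forms are shown first because they held most of the reads of 7 of the 10 miRNAs wherever these were listed, the exceptions being miR-449a-5p, miR-26a-5p in dog and horse, and let-7a-5p in dog. They are written 5′ to 3′ in RNA sense with DNA letters, as copied from the files, and the seed is in capitals. The same 24-nt sequence was listed in dog, bat and horse for each miRNA shown, except that of miR-30a-5p, which was listed in dog and bat. No 24-nt form of miR-449a-5p was listed in dog or bat, and its 30-nt form of dog and horse is given in its place.
miR-10b-5p: tACCCTGTagaaccgaatttgtgt
miR-10a-5p: tACCCTGTagatccgaatttgtgt
miR-34c-5p: aGGCAGTGtagttagctgattgct
miR-449a-5p: tGGCAGTGtattgttagctggttgaatata
miR-146b-5p: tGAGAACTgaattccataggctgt
let-7a-5p: tGAGGTAGtaggttgtatagtttt
miR-21-5p: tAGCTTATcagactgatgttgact
miR-30a-5p: tGTAAACAtcctcgactggaagct
miR-26a-5p: tTCAAGTAatccaggataggctgt
miR-191-5p: cAACGGAAtcccaaaagcagctgt
The 10 miRNAs had 8 different seeds. miR-10a-5p and miR-10b-5p shared a seed, as did miR-34c-5p and miR-449a-5p.

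Together the 10 miRNAs had 93485 reads in dog, or 2262 RPM (2248 to 2277), 9498 reads in bat, or 1629 RPM (1597 to 1663), and 86075 reads in horse, or 2402 RPM (2386 to 2418). These reads were concentrated in a small number of miRNAs, which were not the same in each species. The 3 leading miRNAs held 89.0% of them for dog, 90.4% for bat and 83.8% for horse. miR-146b-5p, miR-10b-5p and miR-30a-5p led in dog, miR-30a-5p, miR-21-5p and miR-191-5p in bat, and miR-10b-5p, miR-146b-5p and miR-21-5p in horse.

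miR-146b-5p, a relative of miR-146a that represses adaptors of innate immune signalling, had 48705 reads for dog, 277 for bat and 23636 for horse. That was 1178 RPM (1168 to 1189) in dog, 47.5 RPM (42.1 to 53.5) in bat and 660 RPM (651 to 668) in horse. It alone made up 52.1% of the reads of the 10 miRNAs in dog, 2.92% in bat and 27.5% in horse. Its 24-nt form was the most read of all 24-nt sequences in dog, with 47289 reads, and ranked 2 among them in horse, with 22698 reads, and 36 in bat, with 274 reads.

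miR-10b-5p and miR-10a-5p differ by 1 base in the middle of the miRNA. In the RefSeq annotation of dog, assembly UU_Cfam_GSD_1.0, MIR10B lies between HOXD8 and HOXD3, and MIR10A between HOXB4 and HOXB5, in the clusters of transcription factors that pattern the body axis. miR-10b-5p had 24067 reads in dog (582 RPM, 575 to 590), 84 in bat (14.4 RPM, 11.5 to 17.8) and 31410 in horse (877 RPM, 867 to 886). miR-10a-5p had 173 reads in dog (4.19 RPM, 3.59 to 4.86), 67 in bat (11.5 RPM, 8.91 to 14.6) and 394 in horse (10.996 RPM, 9.94 to 12.1). In dog and horse the HOXD member was far above the HOXB member, whereas in bat their intervals overlapped.

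miR-30a-5p was the leading miRNA of bat and was not listed in horse. It had 10417 reads in dog (252 RPM, 247 to 257), 5119 in bat (878 RPM, 854 to 903) and 0 in horse. Whether the 0 in horse is a level in the tissue or the reads of this miRNA were not kept among the listed sequences cannot be told from these files, so no limit on its level is given. MIR30A lies next to MIR30C-2 in the dog annotation. Close relatives of the miRNA were listed in horse, as given further on.

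miR-21-5p, an abundant miRNA of many tissues that in mouse is also found in spermatogonia, had 1128 reads in dog (27.3 RPM, 25.7 to 28.9), 2589 in bat (444 RPM, 427 to 462) and 17087 in horse (477 RPM, 470 to 484). Dog thus stood below both other species, which lay close together. miR-191-5p, whose gene MIR191 neighbours MIR425 in dog, varied least among the 4 most read members of horse. It had 7585 reads in dog (184 RPM, 179 to 188), 882 in bat (151 RPM, 141 to 162) and 11099 in horse (310 RPM, 304 to 316).

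The germ cell miRNA miR-34c-5p had 1254 reads in dog (30.3 RPM, 28.7 to 32.1), 453 in bat (77.7 RPM, 70.7 to 85.2) and 2043 in horse (57.0 RPM, 54.6 to 59.5). In dog its gene MIR34C lies beside MIR34B and within HOATZ. miR-449a-5p, which has the same seed and whose gene MIR449A lies beside MIR449B within CDC20B in dog, had few long forms, with 43 reads in dog (1.04 RPM, 0.753 to 1.40), 5 in bat (0.858 RPM, 0.279 to 2.002) and 40 in horse (1.12 RPM, 0.798 to 1.52). The 3 intervals of miR-449a-5p overlapped.

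miR-26a-5p, whose genes MIR26A-1 and MIR26A-2 lie within the phosphatase genes CTDSPL and CTDSP2 in dog, had 65 reads in dog (1.57 RPM, 1.21 to 2.005), 10 in bat (1.72 RPM, 0.823 to 3.16) and 231 in horse (6.45 RPM, 5.64 to 7.33). let-7a-5p, a member of the let-7 family that represses LIN28 and promotes differentiation, had 48 reads in dog (1.16 RPM, 0.856 to 1.54), 12 in bat (2.06 RPM, 1.06 to 3.60) and 135 in horse (3.77 RPM, 3.16 to 4.46). For both, horse was above dog beyond counting error, while the dog and bat intervals overlapped.

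Differences past 2-fold between species were counted for miRNAs with at least 10 reads in either species. Dog over bat, 2 of 10 miRNAs were over 2-fold higher in dog and 4 were over 2-fold lower. Of 1722 sequences of any kind listed in both species on either strand, with at least 10 reads in either, 17% were over 2-fold higher in dog and 64.9% over 2-fold lower. Dog over horse, 1 of 10 miRNAs was over 2-fold higher in dog and 4 were lower, where 21.5% and 56.2% of 4390 such sequences were. Bat over horse, 1 of 10 was higher in bat and 4 were lower, where 59.6% and 22% of 1998 such sequences were. In the shallower bat library 10 reads are a higher RPM than in dog or horse, and how far this minimum sets the background shares was not tested. The miRNA counts are sums over several sequences, whereas the background is of single sequences. The 1 miRNA counted as higher over horse in both pairs was miR-30a-5p, which was not listed in horse. The background holds only sequences listed in both species, so such a case could not enter it. No other miRNA was over 2-fold higher than in horse.

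The sizes of these ratios differed widely between miRNAs. The dog over bat ratio of RPM was 40.4 (32.6 to 50.7) for miR-10b-5p and 24.8 (22.0 to 28.01) for miR-146b-5p, but 0.0614 (0.0572 to 0.0659) for miR-21-5p, 0.287 (0.278 to 0.297) for miR-30a-5p, 0.364 (0.273 to 0.490) for miR-10a-5p and 0.390 (0.350 to 0.436) for miR-34c-5p. Dog and bat therefore differed in opposite directions for the miR-10 pair that shares a seed. The dog over horse ratio was lowest for miR-21-5p, at 0.0572 (0.0538 to 0.0608), followed by miR-26a-5p at 0.244 (0.182 to 0.323), let-7a-5p at 0.308 (0.217 to 0.431) and miR-10a-5p at 0.381 (0.316 to 0.456). miR-146b-5p was 1.79 times (1.76 to 1.81) the horse level in dog. miR-30a-5p, listed at 0 in horse, is the 1 miRNA counted as higher in dog over horse and in bat over horse, and no fold is given for it. The bat over horse ratio was 0.0164 (0.0131 to 0.0204) for miR-10b-5p and 0.0720 (0.0638 to 0.0811) for miR-146b-5p, the 2 miRNAs at which bat stood below both other species by more than 10 times.

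Most reads of the 10 miRNAs sat at the shortest listed length. At 24 nt lay 87896 of the 93485 reads in dog (94.0%), 9369 of 9498 in bat (98.6%) and 84642 of 86075 in horse (98.3%). By contrast 24-nt reads were 0.684% of the whole library for dog, 2.87% for bat and 1.45% for horse. The 10 miRNAs accounted for 31.1% (30.9 to 31.3%) of all 24-nt reads in dog, 5.61% (5.50 to 5.72%) in bat and 16.2% (16.1 to 16.3%) in horse. At 25 nt this share was 0.0835% for dog, 0.0450% for bat and 0.0359% for horse, and at 30 nt it was 0.0231% for dog, 0.000721% for bat and 0.00675% for horse. No form of 32 nt was listed in dog.

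Forms of 26 nt or longer, which overlap the size of piRNAs, were 5.52% (5.37 to 5.67%) of the reads in dog, 0.621% (0.473 to 0.801%) in bat and 1.26% (1.19 to 1.34%) in horse. In dog and in horse a single miRNA carried most of this share. In bat none did, as leaving out any 1 miRNA gave 0.564 to 0.891%. Without miR-10b-5p the share in dog was 1.99%, and without miR-146b-5p the share in horse was 0.488%. In dog 80.9% (79.8 to 81.9%) of the long forms were 29 to 32 nt, near the 81.7% of all library reads of 26 to 32 nt. In bat 59.3% (45.7 to 71.9%) of the long forms were of this length, against 80.8% of library reads, and in horse 91.5% (89.7 to 93.1%), against 78.0%.

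The reads did not decline steadily with length in dog and horse. In dog the 10 miRNAs together had 429 reads at 25 nt, 202 at 26 nt, 492 at 27 nt, 294 at 28 nt, 1173 at 29 nt, 2960 at 30 nt and 39 at 31 nt. Horse had 349 reads at 25 nt, 41 at 26 nt, 37 at 27 nt, 14 at 28 nt, 67 at 29 nt, 746 at 30 nt and 171 at 31 nt. In bat no length from 26 to 32 nt had more than 15 reads. Of the miRNAs with at least 10 reads of 26 nt or longer, all 8 in dog, both in bat and 5 of 7 in horse had more reads at 29 to 32 nt than at 26 to 28 nt. In horse miR-10b-5p (15 against 34 reads) and miR-21-5p (9 against 12) did not. In bat the counts were close, at 13 against 7 for miR-30a-5p and 9 against 8 for miR-21-5p. The longer class spans more lengths. It also held 81.7% of all library reads of 26 to 32 nt in dog, 80.8% in bat and 78.0% in horse, so these counts set the miRNAs apart little.

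miR-10b-5p supplied most of the long forms in dog. It had 3782 reads of 26 nt or longer there, 15.7% (15.3 to 16.2%) of its reads, against 3 of 84 reads in bat, or 3.57% (0.743 to 10.1%), and 49 of 31410 reads in horse, or 0.156% (0.115 to 0.206%). Its 2 long forms below are shown because they were listed in both dog and horse at very different counts.
miR-10b-5p, 30 nt: tACCCTGTagaaccgaatttgtgtggtatc
miR-10b-5p, 27 nt: tACCCTGTagaaccgaatttgtgtggt
The 30-nt form had 1861 reads for dog, 1 for bat and 4 for horse, although the 24-nt form was read more often in horse (31333) than in dog (20187). The 27-nt form had 481 reads in dog and 17 in horse. The long share is taken within the reads of this miRNA, so the library total does not enter it. The lengths that each library kept do enter it. Reads of 24 nt were 0.684% of the whole library for dog, 2.87% for bat and 1.45% for horse. How far the choice of lengths sets the long share was not tested.

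miR-146b-5p had long forms in dog and horse alike, at 2.34% (2.20 to 2.47%) of its reads in dog and 3.30% (3.07 to 3.53%) in horse, with 1 such read in bat. In both species they were mainly 30 nt long, with 1014 of the 1138 long reads in dog and 672 of 779 in horse. The 30-nt forms end in different bases in dog and horse.
miR-146b-5p, dog: tGAGAACTgaattccataggctgtgagctt
miR-146b-5p, horse: tGAGAACTgaattccataggctgtgagctc
Counted from base 1 of the miRNA, dog and horse differed by T30C, the dog base being first. The dog form had 1014 reads and the horse form 671 reads. The single 30-nt read of bat had the horse sequence, and dog and bat differed by the same T30C.

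For the 3 miRNAs with the fewest reads in dog and bat, long forms were the larger share in dog, and in the other species for some of them. All 43 reads of miR-449a-5p in dog and all 5 in bat were 28 nt or longer, and in horse 37 of 40, or 92.5% (79.6 to 98.4%), were 26 nt or longer. Its leading form was 30 nt in the 3 species, with 31 reads for dog, 4 for bat and 32 for horse. let-7a-5p had 43 of 48 reads at 26 nt or longer in dog, or 89.6% (77.3 to 96.5%), 3 of 12 in bat, or 25% (5.49 to 57.2%), and 24 of 135 in horse, or 17.8% (11.7 to 25.3%). miR-26a-5p had 54 of 65 in dog, or 83.1% (71.7 to 91.2%), 2 of 10 in bat, or 20% (2.52 to 55.6%), and 152 of 231 in horse, or 65.8% (59.3 to 71.9%). These 3 miRNAs also had the fewest 24-nt reads, at most 8 for dog, 9 for bat and, leaving out miR-30a-5p, 108 for horse.

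At the other end stood miRNAs that were listed nearly as 1 form, among them miR-30a-5p, miR-191-5p and miR-21-5p. The 24-nt form held 10405 of 10417 reads of miR-30a-5p in dog (99.9%) and 5072 of 5119 in bat (99.1%). miR-30a-5p had 2 reads of 26 nt or longer in dog and 20 in bat. The 24-nt form of miR-191-5p held 7522 of 7585 reads in dog (99.2%), 862 of 882 in bat (97.7%) and 10949 of 11099 in horse (98.6%). Its long forms were 19 reads for dog, 0 for bat and 4 for horse. miR-21-5p had 12 long reads for dog (1.06%), 17 for bat (0.657%) and 21 for horse (0.123%), and miR-10a-5p had 1 for dog, 0 for bat and 4 for horse.

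The bases added beyond the 3-prime end of the searched sequence followed 1 fixed run for most miRNAs. For each miRNA and species the added bases of all its forms were compared. A form counted as nested where its added bases were the start of the leading longer run, or where it had none. The leading run was the one that most of the same reads fitted, and most reads added only 1 or 2 bases. The shares below are therefore high in part by construction and say little of the longer forms. The leading run had only 2 bases for miR-191-5p and miR-10a-5p in bat, 3 for miR-10a-5p in dog and 4 for miR-30a-5p in dog. In bat let-7a-5p (12 reads), miR-26a-5p (10) and miR-449a-5p (5) had few reads in which another run could appear. In bat all 9498 reads were nested in this way (100%, 99.96 to 100%). In dog 93458 of 93485 were (99.97%, 99.96 to 99.98%), and in horse 85990 of 86075 (99.90%, 99.88 to 99.92%). Nesting was complete for 8 of 10 miRNAs in dog, 10 of 10 in bat and 7 of 9 in horse. The exceptions were miR-26a-5p and let-7a-5p, which are encoded by more than 1 gene. No hairpin sequence was used here, so whether the added bases are those of the genome was not tested.

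On average 1.94 bases were added in dog, 1.88 in bat and 1.55 in horse, with standard deviations over reads of 1.23 bases in dog, 0.539 in bat and 0.868 in horse. These means follow the make-up of each library, because the shortest listed form adds 1 base to a miRNA searched with 23 nt and 2 bases to one searched with 22 nt. The per-miRNA means show the spread. miR-10b-5p had 1.79 added bases in dog, 1.25 in bat and 1.01 in horse, miR-34c-5p had 1.23 for dog, 1.06 for bat and 1.04 for horse, and miR-146b-5p had 2.14 in dog, 2.02 in bat and 2.20 in horse. miR-449a-5p had the most in each species, with 7.60 for dog, 8.40 for bat and 7.42 for horse.

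miR-26a-5p had 2 added runs in dog and horse, and they are shown because the orientation in the dog file went with them. Before them stands the form that both runs share.
shared, 24 nt: tTCAAGTAatccaggataggctgt
first run, dog, 31 nt: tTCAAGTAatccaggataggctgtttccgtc
first run, horse, 31 nt: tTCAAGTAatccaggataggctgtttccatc
second run, dog and horse, 29 nt: tTCAAGTAatccaggataggctgtgcagg
In dog 44 reads belonged to the first run alone, each listed as the reverse complement, and 13 to the second run alone, each listed in RNA sense. In horse 108 reads belonged to the first run alone and 44 to the second, and both were listed as the reverse complement. In bat 7 of the 10 reads were the shared form and the other 3 belonged to the first run. The first runs of dog and horse differed by G29A, the dog base being first. RefSeq lists both MIR26A-1 and MIR26A-2 in dog, and which gene gave which run was not tested.

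let-7a-5p had 3 added runs in dog and in horse. In dog 34 reads fitted the first run shown, 11 the second and 3 the last.
first run, 30 nt: tGAGGTAGtaggttgtatagttttagggtc
second run, 29 nt: tGAGGTAGtaggttgtatagtttggggct
last run, 29 nt: tGAGGTAGtaggttgtatagtttagaatt
The reads of the first and second runs were listed as the reverse complement in dog, and those of the last in RNA sense. The first run was the leading one in each species, with 12 of 12 reads in bat and 94 of 135 in horse, and the 30-nt form shown was listed in the 3 species with 22 reads for dog, 2 for bat and 15 for horse. A further 39 reads in horse, and 1 in dog, were of the following 24-nt form, whose added bases begin the last run of dog.
let-7a-5p, 24 nt: tGAGGTAGtaggttgtatagttta
The remaining 2 horse reads, in RNA sense, fitted the beginning of the second run of dog. The dog annotation lists MIRLET7A-1 beside MIRLET7B, and MIRLET7A-2 between MIR99A-2 and MIR125B-1.

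Apart from these cases each miRNA was listed in 1 orientation in each file, and the orientation differed between species. Of the reads of the 10 miRNAs, 87.2% were listed in RNA sense in dog, 45.1% in bat and 71.7% in horse. miR-10b-5p was listed in RNA sense in dog and horse but as the reverse complement in bat, and miR-146b-5p in RNA sense in dog and bat but as the reverse complement in horse. miR-30a-5p was listed as the reverse complement in both species that held it. A search in RNA sense alone would have missed 0 of 48705 reads of miR-146b-5p in dog but all 23636 in horse.

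As far as they could be compared, the leading added runs of some miRNAs were the same between species and those of others differed. The leading runs of miR-10b-5p, miR-21-5p and let-7a-5p did not differ over the 8 or 9 bases compared in any pair of species, nor did those of miR-191-5p over 7 bases between dog and horse. For miR-30a-5p only 4 bases could be compared, and for miR-10a-5p 2 or 3, without a difference. miR-146b-5p (T30C) and miR-26a-5p (G29A) differed between dog and horse, as given above. miR-34c-5p differed by G29A between dog and horse and between bat and horse, the horse base being second, whereas dog and bat were alike over 7 bases. miR-449a-5p was alike over 8 bases in dog and horse but had another run in bat, shown here with 4 reads beside the run of dog and horse.
miR-449a-5p, dog and horse, 30 nt: tGGCAGTGtattgttagctggttgaatata
miR-449a-5p, bat, 30 nt: tGGCAGTGtattgttagctggttggtatgt
Compared position by position without gaps, dog and bat differed at 6 of the 8 bases. These were A25G, A26T, T27A, A28T, T29G and A30T, the dog base being first. A single gained or lost base would also shift the bases after it, so these need not be separate substitutions. An alignment with gaps was not tested, and the bat run rests on 5 reads.

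The 5-prime end was nearly fixed. The unshifted end was found in 99.6% (99.58 to 99.66%) of reads in dog, 99.7% (99.6 to 99.8%) in bat and 99.8% (99.76 to 99.82%) in horse. In dog 350 reads began 1 base before the mature end and 5 began 2 bases before it. In bat 22 began 1 base and 3 began 2 bases before it, and in horse 173 began 1 base, 4 began 2 bases and 3 began at least 3 bases before it. By construction a form that begins inside the miRNA could not be a member. A search with bases 4 to 20 alone, added after seeing the data, found such starts for miR-10b-5p with 149 reads in dog (0.619% of its reads), 6 in bat and 150 in horse (0.478%), each 1 base inside the mature end, and at most 10 reads for any other of the miRNAs in a species.

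Most shifted reads in dog and horse belonged to miR-146b-5p, with 276 reads for dog, 1 for bat and 154 for horse. The main shifted form carries a C before the mature end and was 25 nt long, with 265 reads in dog and 148 in horse.
miR-146b-5p, shifted: ctGAGAACTgaattccataggctgt
The shift was more common in its short forms than in its long ones, at 0.574% (0.508 to 0.646%) of 24 and 25 nt reads against 0.264% (0.0544 to 0.768%) of reads of 26 nt or longer in dog, and at 0.665% (0.564 to 0.779%) against 0.257% (0.0311 to 0.924%) in horse. The intervals of short and long forms overlapped in both species.

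miR-34c-5p went the other way, with a shift in nearly all of its long forms in dog and horse. Of its reads of 26 nt or longer, 64 of 66 were shifted in dog, or 97.0% (89.5 to 99.6%), and 14 of 14 in horse, or 100% (76.8 to 100%). In bat 2 of 8 were, or 25% (3.19 to 65.1%). Of its 24 and 25 nt reads only 2 of 1188 were shifted in dog, or 0.168% (0.0204 to 0.607%), 11 of 445 in bat, or 2.47% (1.24 to 4.38%), and 4 of 2029 in horse, or 0.197% (0.0537 to 0.504%). The mature miRNA begins with A, and the base before it is T in each species, so that forms shifted by 1 base begin with T, while 2 dog reads shifted by 2 bases begin with C.
miR-34c-5p, 29 nt, in the 3 species: taGGCAGTGtagttagctgattgctaata
miR-34c-5p, 31 nt, dog and bat: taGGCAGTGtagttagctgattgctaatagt
miR-34c-5p, 31 nt, horse: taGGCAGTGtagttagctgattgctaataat
The 29-nt form had 48 reads for dog, 1 for bat and 5 for horse, the first 31-nt form 13 reads in dog and 1 in bat, and the second 8 reads in horse. The capitals mark the seed of the unshifted miRNA. miR-449a-5p, which has the same seed and itself begins with T, had no shifted read in the 3 species.

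Of the reads of 26 nt or longer, T stood first in 99.5% (99.3 to 99.7%) in dog, 86.4% (75.0 to 94.0%) in bat and 99.5% (98.9 to 99.9%) in horse. Among 24 and 25 nt reads it stood first in 89.8% for dog, 86.0% for bat and 84.4% for horse. In an unshifted read the first base is set by the searched sequence, so these shares follow which miRNAs supply the reads. Only miR-191-5p and miR-34c-5p have a mature form that does not begin with T. In dog miR-191-5p supplied 7566 of the 88325 reads of 24 and 25 nt, but 19 of the 5160 longer ones. None of the long reads of miR-191-5p, 19 in dog and 4 in horse, had T first, whereas the long forms of miR-34c-5p had T first in 62 of 66 reads in dog, 2 of 8 in bat and 14 of 14 in horse.

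Sequences with 1 mismatch to the miRNAs were also searched for. How reads were chosen for listing is not given, and reads with a mismatch may have been left out before. An absence of such sequences therefore does not show how exact the RNA forms are. For 8 of the 10 miRNAs no sequence with 1 mismatch was listed in any of the 3 species, other than miR-10a-5p and miR-10b-5p finding each other, although miR-146b-5p alone had 48705 exact reads in dog. The 1-mismatch sequences of miR-30a-5p and let-7a-5p were few in kind. For miR-30a-5p they carried either T12C or C13T, the miR-30a base being first, which are the bases known to set apart miR-30d-5p and miR-30e-5p.
T12C, 24 nt: tGTAAACAtccccgactggaagct
C13T, 24 nt: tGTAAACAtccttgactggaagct
The T12C sequences had 8249 reads in dog (200 RPM, 195 to 204), 2840 in bat (487 RPM, 469 to 505) and 19445 in horse (543 RPM, 535 to 550). The C13T sequences had 6381 reads in dog (154 RPM, 151 to 158), 3537 in bat (607 RPM, 587 to 627) and 17214 in horse (480 RPM, 473 to 488). Horse thus listed both relatives at levels near its own miR-21-5p and listed no read of miR-30a-5p, a 0 that may not be a level, as stated above. For let-7a-5p the changes were A19G, G12A and T9G, the let-7a base being first, and no one of them exceeded 61 reads in a species.

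Identical member sequences were more often listed in the 3 species, called shared here, among short than among long forms. At 24 and 25 nt 14 of 36 sequences were shared, against 3 of 26 at 26 to 28 nt and 5 of 48 at 29 to 32 nt. Counted in 2 or 3 species, these were 24 of 36, 14 of 26 and 17 of 48, a smaller drop at 26 to 28 nt. By construction every member holds a whole searched sequence, so a short form has few other bases in which species could differ. These counts therefore cannot tell whether the long forms are less conserved. The shared 24 and 25 nt sequences held 87.8% of the reads of that size in dog, 45.7% in bat and 99.7% in horse. miR-30a-5p, the leading miRNA of bat, was not listed in horse and so is not among the shared sequences. Among forms of 29 to 32 nt the shared sequences held 46.6% of the reads for dog, 25.7% for bat and 3.02% for horse, where the leading 30-nt form of miR-146b-5p differs from that of dog. The bat library had 59 member reads of 26 to 32 nt, 35 of them at 29 to 32 nt, which limits how many long forms it could show.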

How the data were processed

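Per the labels' protocols, total RNA of frozen testes was extracted with TRIzol and its small RNAs gave single-end reads of 50 bp. The small RNA files deposited by the authors hold, per the file headers, a raw read count for each sequence. The submitters' processing notes name Bowtie, RSEM and CanFam3.1 without roles; how reads were trimmed and chosen by length is not given in the sources used here. The mRNA files were not used.

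Identical rows were summed. Each sequence was searched on both strands for the 10 mature miRNAs with Python 3.11.15; intervals came from scipy 1.17.1. No miRNA table was at hand, so the search sequences were the conserved mammalian ones as generally known, 22 or 23 nt long, and every sequence printed was read from the files. The search was tested on planted sequences. Hairpins, further reference miRNAs and chromosome positions were not analysed here, so the background of ratios was taken over sequences listed in both species, a choice made after seeing the data. All 10 miRNAs are named, with a leading form of each; shifted forms are printed for miR-146b-5p and miR-34c-5p, which had most shifted reads in dog and horse. The members and lists were chosen with earlier results of these data known. Ratios need at least 10 reads in either species.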

Additional observations from a re-analysis of the deposited data

How the results depend on the processing

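With 1 library a species, values are set against counting intervals alone, and no library could be left out; no paired analysis was possible because each group held 1 sample. The summed level of the 10 miRNAs in dog, bat and horse was 2306, 1725 and 2507 RPM with the total taken over 26 to 32 nt. In RNA sense alone it was 1972, 734 and 1721 RPM. With 1 mismatch allowed, which adds the relatives of miR-30a-5p and let-7a-5p, it was 2617, 2725 and 3428 RPM, so that bat passed dog. With at most 3 added bases and a shift of at most 2 it was 2141 RPM in dog and 2372 RPM in horse and stayed within its interval in bat. Matching bases 1 to 18, or bases 4 to 20 (added after seeing the data), kept it within its interval in each species. The unshifted share was 99.82%, 99.50% and 99.68% without the most read miRNA, 78.1%, 78.4% and 79.2% over distinct sequences, and 99.66%, 99.49% and 99.96% in RNA sense. Mean added bases were 1.72, 1.71 and 1.87 without the most read miRNA, 4.45, 4.45 and 4.51 over distinct sequences, and 1.95, 1.95 and 1.69 with 1 mismatch. In RNA sense they were 1.71 in bat and 1.29 in horse and within the interval in dog. The share of 26 nt or longer, added after seeing the data, was 8.98%, 0.891% and 1.89% without the most read miRNA, 64.1%, 54.9% and 61.1% over distinct sequences, and 6.09% in dog and 0.203% in horse in RNA sense, within the interval in bat. The counts over horse that follow include miR-30a-5p, listed at 0 in horse. Past 4-fold lay 3 miRNAs in each of the pairs dog over bat, dog over horse and bat over horse, against 6, 5 and 5 past 2-fold. With at least 100 reads these counts were the same, though of 7, 9 and 9 miRNAs in place of 10. As shares of the 10 miRNAs, a scale added after seeing the data, the counts past 2-fold were 7, 5 and 5. Bat over horse then had 2 higher and 3 lower in place of 1 and 4. The cause of these shifts was not tested beyond what each setting leaves out. Of the 29 levels of single miRNAs, 14 moved past their counting interval in RNA sense alone, 4 with 1 mismatch and 29 without their most read sequence. The match of added bases to hairpins was not run, and levels of single miRNAs as a share of the 10 were not tabulated. Bat, with the fewest reads, limits the long forms most.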
